A study of Mus musculus with 24 samples.

Results

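The genes described here are the protein-coding genes of mouse chromosome 8 that were well expressed in a series on Carma, a long noncoding RNA gene. They were chosen as the records of the deposited gene table on chromosome 8 with a mean of at least 5 FPKM over 24 libraries. Records whose names begin with Col, Rpl, Rps, Mrpl, Mrps, Nduf, Atp5, Cox, Psm or Zfp were left out. This gave 374 members of 14737 records in the table. Chromosome 8 held 755 records, of which 356 lay under the limit and 25 were left out by name, among them Zfp42, Col4a1, Rpl13, Cox4i1 and Colgalt1, which is no collagen gene. The chromosome was singled out because its genes were slightly lower in Carma3xpA/+ cells in these same libraries, so every difference between genotypes below is a description. Where limma calls are given for such differences, they too only describe, because the same contrast chose the chromosome. Just outside the limit lay Ddhd2 (4.94 FPKM), Dlc1 (4.94) and Armc6 (4.97), and just inside it Mtmr7 (5.03), Rab11fip1 (5.04) and Fto (5.07).

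Polyadenylated RNA was sequenced from mouse embryonic stem cells of strain 129/Sv, either wild type or Carma3xpA/+. By its usual notation the allele name means that 1 copy of Carma carries a cassette of 3 polyadenylation signals, which ends transcription early. Undifferentiated cells (d0) had been grown on feeder fibroblasts with serum and LIF, and embryoid bodies formed in hanging drops for cardiac differentiation were taken at d3, d6 and d10. Each of the 8 groups of genotype and day had 3 libraries, stated to be biological replicates. The labels do not say whether a genotype is 1 clone or whether replicates were separate cultures, so the p-values given for the wild type time course measure the spread between these libraries.

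A mouse chromosome is no functional unit, and the members range from adhesion receptors to replication, translation and metabolic genes. Chromosome 8 carries a group of neighbouring cadherin genes, which encode calcium-dependent adhesion proteins of epithelium, endothelium and mesenchyme. In culture, mouse embryonic stem cell lines recurrently gain whole chromosomes, 8 and 11 among them, and the RNA of genes on a gained chromosome tends to follow its copy number. DNA copy number was not analysed here.

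Values are FPKM, which are scaled to transcript length and library total, and summed FPKM lay between 245274 and 306848 per library. The depth behind them is unknown. Differences are on the log2(FPKM + 1) scale, Carma3xpA/+ minus wild type, and understate the change of low genes. Pearson correlations across genes between replicates ran from 0.950 to 0.994. The lowest belonged to replicate 1 of Carma3xpA/+ at d0, without which the lowest was 0.967, and this library stood apart in several of the values below. Pou5f1, the pluripotency factor Oct4, lay between 229 and 258 FPKM in wild type d0 cells and between 11.9 and 25.3 at d10. Tnnt2, cardiac troponin T, lay under 0.5 FPKM at d0 and between 17.8 and 25.5 at d6 in wild type.

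Promoter sequence was matched for 258 of the 374 members in RefSeq's table (build GRCm38.p6), each 250 bases before to 50 bases after the start of transcription. The letters GGGCGG of the GC box, on either strand, occurred in 70.5% of member promoters, 69.4% of 4791 promoters of similarly expressed genes on other chromosomes and 35.9% of all 27025. The letters CCAAT occurred in 39.5%, 40.8% and 37.9% of these, and TATAAA in 7.36%, 6.66% and 14.2%, both strands counted. The median GC content was 62.5%, 61.3% and 52.7%. Member promoters were thus GC-rich like those of other expressed genes, and a match says nothing of a factor's binding. The promoters below belong to members that differed between genotypes in opposite directions or over time. Sap30 was lower in Carma3xpA/+ at d3, d6 and d10, Apela was among the members that were higher, Klf2 fell the most from d0 to d3 in wild type on the log2(FPKM + 1) scale, and Acta1 changed direction between days. Capitals mark the GC, CCAAT (here ATTGG, its other strand) and TATA letters, and each sequence runs in the direction of its gene. Sap30 lies on the minus strand (chr8:57487811-57488110), Apela on the minus strand (chr8:65037287-65037586), Klf2 on the plus strand (chr8:72318812-72319111) and Acta1 on the minus strand (chr8:123894726-123895025).
Sap30: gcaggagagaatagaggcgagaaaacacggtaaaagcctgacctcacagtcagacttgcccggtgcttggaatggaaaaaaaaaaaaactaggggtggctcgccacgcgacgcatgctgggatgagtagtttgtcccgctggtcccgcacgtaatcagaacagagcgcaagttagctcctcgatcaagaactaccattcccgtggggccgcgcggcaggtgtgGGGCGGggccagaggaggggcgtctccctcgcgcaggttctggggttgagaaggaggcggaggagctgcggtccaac
Apela: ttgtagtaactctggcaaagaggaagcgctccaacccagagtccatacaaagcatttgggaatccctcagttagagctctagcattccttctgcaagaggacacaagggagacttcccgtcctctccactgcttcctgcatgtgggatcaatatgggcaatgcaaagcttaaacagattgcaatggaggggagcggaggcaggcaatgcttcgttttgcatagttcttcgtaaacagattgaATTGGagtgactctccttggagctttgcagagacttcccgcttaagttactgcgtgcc
Klf2: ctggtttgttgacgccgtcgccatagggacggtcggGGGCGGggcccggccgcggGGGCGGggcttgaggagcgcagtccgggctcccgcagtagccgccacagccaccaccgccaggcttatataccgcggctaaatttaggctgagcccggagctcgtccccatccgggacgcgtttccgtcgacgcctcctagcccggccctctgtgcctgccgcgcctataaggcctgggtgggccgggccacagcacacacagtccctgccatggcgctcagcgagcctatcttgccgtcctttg
Acta1: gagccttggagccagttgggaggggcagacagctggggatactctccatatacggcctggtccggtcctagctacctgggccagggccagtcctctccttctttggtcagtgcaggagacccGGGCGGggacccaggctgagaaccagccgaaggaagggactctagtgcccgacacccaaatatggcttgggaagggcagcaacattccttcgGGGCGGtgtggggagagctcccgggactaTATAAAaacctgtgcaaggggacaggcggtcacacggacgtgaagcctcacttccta
Of the 4, Klf2 and Acta1 each held 2 GC boxes and Sap30 held 1, Acta1 alone held a TATA match, and Apela held no GC box in this window.

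Chromosome 8 genes were, as a body, a few percent lower in Carma3xpA/+ embryoid bodies than in wild type, and the shift was largest at d3. The median difference of the 374 members was -0.12 at d3, against -0.02 for 6089 records of the same level on the other chromosomes apart from 11. The name rule was not applied to these others, and 369 of them were of the left-out families. Those 369 had medians of 0.265 at d0, -0.004 at d3, -0.044 at d6 and 0.128 at d10. Relative to the 6089 others the members' median was -0.10 at d3, a change of -6.49%. It was -0.06 at d6 (-4.15%), -0.05 at d10 (-3.48%) and -0.03 at d0 (-2.07%). At d3, 77.5% of the members lay below 0 against 56.2% of the others, at d6 64.7% against 48.6%, at d10 63.1% against 51.1%, and at d0 57.5% against 53.1%. Bulk values cannot tell fewer cells of a type from less RNA per cell.

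The same shift was read in each library as the members' median difference from the wild type mean of that day, less that of the other chromosomes. At d3 the 3 Carma3xpA/+ libraries were at -0.103, -0.093 and -0.091, and the wild type libraries at 0.002, 0.002 and -0.007. At d6 the Carma3xpA/+ libraries were at -0.073, -0.072 and -0.070, and the wild type libraries at 0.008, -0.001 and -0.004. At d10 they were at -0.060, -0.031 and -0.059, against 0.021, 0.007 and -0.022. On each of these days every Carma3xpA/+ library lay below every wild type library, with the smallest gap at d10. At d0 the Carma3xpA/+ libraries were at 0.018, -0.034 and -0.037 and the wild type libraries at 0.009, -0.003 and -0.005. There replicate 1 lay above all wild type libraries and the other two below them. The group means were -0.0953 ± 0.00634 at d3, -0.0718 ± 0.00163 at d6, -0.0499 ± 0.0162 at d10 and -0.0175 ± 0.0311 at d0 (SD, n = 3 each). The members' share of all FPKM was 3.40% in wild type and 3.14% in Carma3xpA/+ at d3, 3.55% and 3.39% at d6, 3.62% and 3.33% at d10, and 3.32% and 3.17% at d0.

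**Figure D1:**
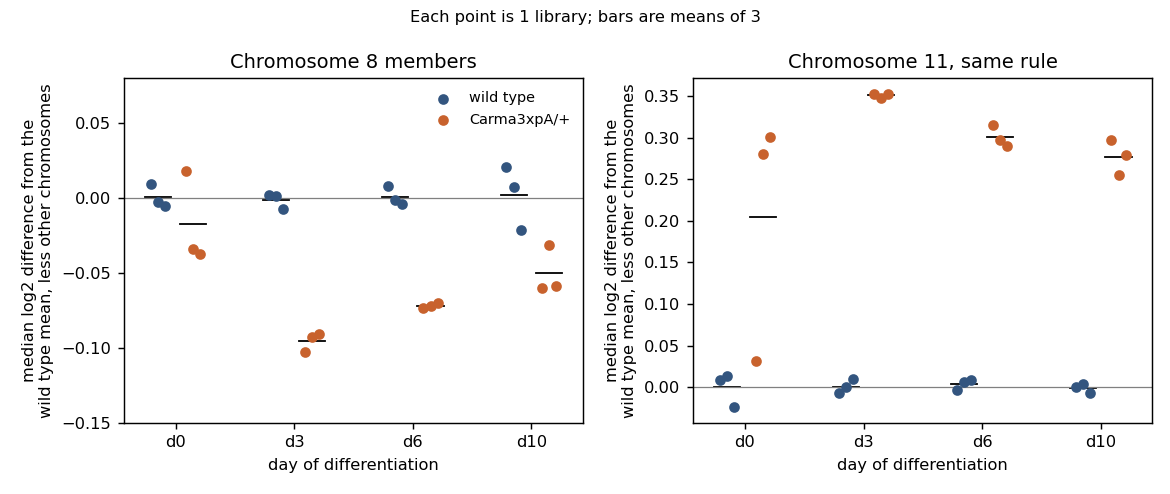
Median log2 difference of each library from the wild type mean of its day, less that of the other chromosomes, for the 374 chromosome 8 members and for 636 chromosome 11 genes, by day; points are libraries and bars means of 3. From d3 on the Carma3xpA/+ libraries lie between -0.103 and -0.031 for chromosome 8, and the vertical scales of the panels differ.

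Set beside the other chromosomes, chromosome 8 had the lowest median of 20 at d3, at d6 and on average over the 4 days. The other 18 chromosomes, without 8 and 11, ran from -0.027 to 0.014 at d3, so chromosome 8 at -0.097 lay outside them. At d6 they ran from -0.039 to 0.060, again above chromosome 8 at -0.061. At d10 chromosome 1, at -0.058, lay below chromosome 8 at -0.051. At d0 the range was -0.082 to 0.036, and chromosome 8 at -0.030 lay inside it. Chromosome 11 went the other way, with medians of 0.20, 0.35, 0.31 and 0.27 at d0, d3, d6 and d10. Replicate 1 of Carma3xpA/+ at d0 had a chromosome 11 value of 0.031, whereas replicates 2 and 3 had 0.280 and 0.301. Without that library the chromosome 8 median at d0 was -0.03, as with it, but without replicate 3 it was -0.0097.

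**Figure D2:**
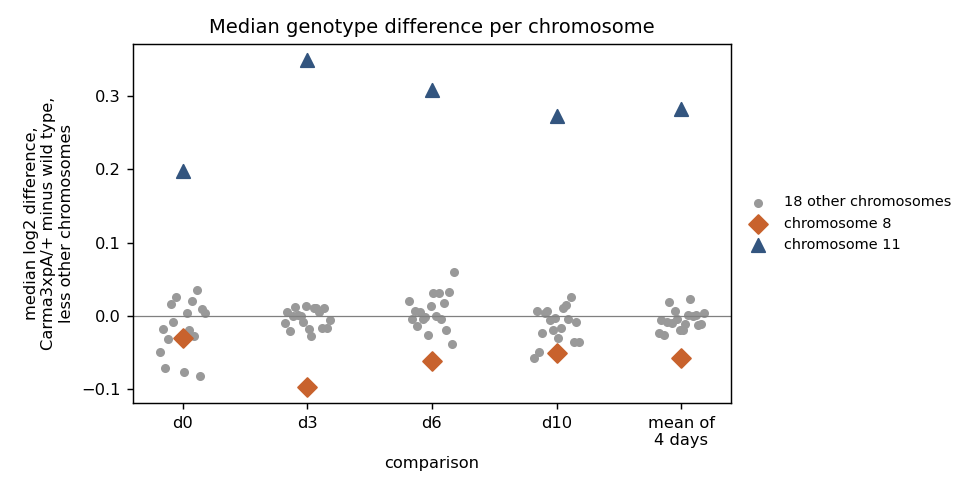
Median log2 difference, Carma3xpA/+ minus wild type, for the genes of each chromosome, less the median of all chromosomes but 8 and 11, by day and on average over 4 days; each point is a chromosome. Chromosome 8 (diamond) lies below the 18 others at d3, at d6 and on average, within them at d0 and d10, and chromosome 11 (triangle) lies above all.

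Along the chromosome the lower level was spread rather than held in a block. Of 13 windows of 10 Mb, 13 had a median below 0 at d3, 11 at d6, 12 at d10 and 10 at d0, relative to the other chromosomes. At d3 the window medians ran from -0.121 (60 to 70 Mb, 14 members) to -0.015 (110 to 120 Mb, 29 members). The window from 50 to 60 Mb had the lowest value at d0 (-0.264) and at d10 (-0.239) but held only 7 members. The window from 70 to 80 Mb, with 56 members, was the highest at d0 (0.089) and the lowest at d6 (-0.126). Its members had a median locus span of 11.4 kb, and at d0 short genes ran higher on the other chromosomes too. The order of the windows therefore differed from day to day.

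**Figure D3:**
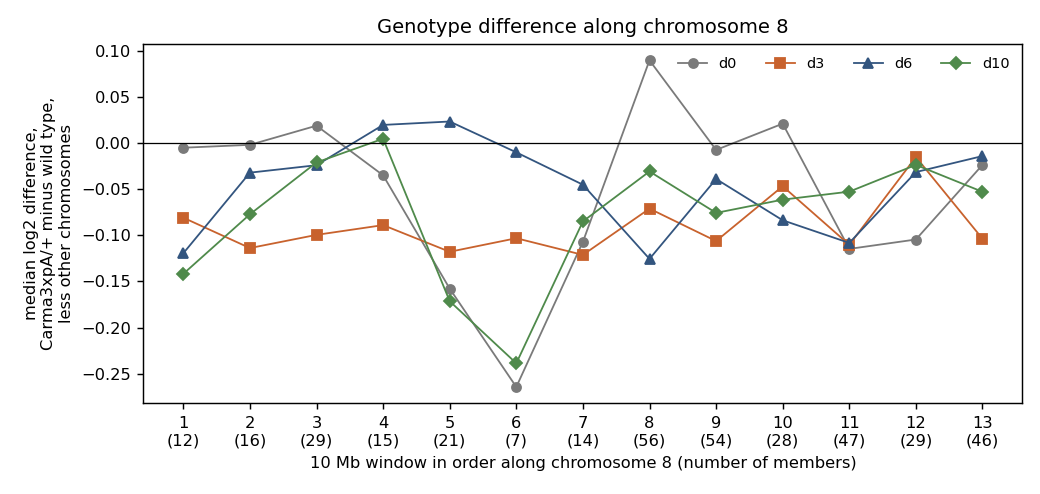
Median log2 difference, Carma3xpA/+ minus wild type, of the members in each 10 Mb window, less the other chromosomes, in order along chromosome 8, one line per day, with the number of members under each window. The d3 line stays below 0 in all 13 windows, and the other days lie above 0 in 1 to 3 windows.

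The span of a gene moved with the d0 values. At d0 the 125 members of up to 12.6 kb had a median difference of 0.13, the 124 of middle span -0.07 and the 125 longest -0.21, against 0.16, -0.00 and -0.19 for the other chromosomes. In replicate 1 of Carma3xpA/+ alone the 3 medians were 0.30, -0.09 and -0.55, and without it 0.06, -0.03 and -0.06. At d3, relative to other genes of like span, the members were at -0.08, -0.11 and -0.09 from short to long. Grouped by expression level instead, they were at -0.10, -0.09 and -0.10. The other days were less even. At d10 the relative medians were -0.09, -0.05 and -0.02 from short to long, and -0.06, 0.003 and -0.08 from low to high expression. At d6 they were -0.03, -0.07 and -0.06 by span and -0.06, -0.08 and -0.04 by expression. At d0 they were -0.02, -0.06 and -0.02 by span and -0.02, 0.02 and -0.05 by expression. The part of span and of this library in the d0 calls below was not tested.

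The genes of chromosome 8 that the choice left out were also lower at d3. The 25 records left out by name had a median of -0.15 at d3, against -0.00 for 369 records of the same families on other chromosomes. The 301 tested records under 5 FPKM had a median of -0.09 against -0.01 for 5499 elsewhere. At d10 the low records differed little, with -0.08 on chromosome 8 and -0.08 elsewhere. They also differed little at d0 (-0.055 against -0.051), and at d6 they were at -0.057 against -0.018. The records left out by name differed little at d6 (-0.051 against -0.044). They were at 0.035 against 0.265 at d0 and at -0.036 against 0.128 at d10.

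Most members differed too little, gene by gene, to pass a test. A gene is called here when limma's Benjamini-Hochberg adjusted p over 13373 tested records is under 0.05. All 374 members passed the filter on low values. The 6089 records of the same level on other chromosomes, name families included, are termed comparable. At d3, 18 members were called lower and 2 higher, against 1.93% and 4.54% of all tested records and 1.97% and 2.35% of the comparable records. At d6 the counts were 17 lower and 3 higher (3.48% and 4.3% of all, 1.72% and 2.48% of the comparable records). At d10 they were 20 lower and 6 higher (5.91% and 4.95%, 2.46% and 3.79%), and at d0 48 and 36 (9.29% and 9.53%, 9.56% and 11.9%). For the average over the 4 days 85 were called lower and 19 higher (13.5% and 13.1%, 10.1% and 11.7%). Nothing is read from these counts, since the same contrast chose the chromosome. The spread is estimated over all groups together, so replicate 1 of Carma3xpA/+ at d0 bears on every day's count. Without it the lower counts were 47 at d3, 30 at d6, 42 at d10 and 30 at d0. Leaving out 1 library of the day itself lowered most counts. At d3 the count was 11, 7 and 9 without wild type replicate 1, 2 or 3, and 8, 10 and 11 without Carma3xpA/+ replicate 1, 2 or 3. At d6 it was 11 and 10 without wild type replicate 1 or 2, and 10 without Carma3xpA/+ replicate 1. At d10 it was 7, 10 and 9 without wild type replicate 1, 2 or 3, but 38, 12 and 11 without Carma3xpA/+ replicate 1, 2 or 3. At d0 it was 22 and 21 without wild type replicate 1 or 2, and 88 without Carma3xpA/+ replicate 2.

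Counting libraries instead of calls, 149 members at d3 had all Carma3xpA/+ libraries below all wild type libraries and 23 had all above, where 19.3% and 19.1% of all tested records and 21.6% and 15.9% of the comparable records did so. At d6 the counts were 86 and 28 (14.2% and 16.8% of all, 12% and 13.7% of the comparable records). At d10 they were 66 and 32 (14.6% and 14.4%, 11.1% and 14.8%), and at d0 74 and 46 (15.4% and 13.2%, 15.3% and 15.7%). By group means 92 members (24.6%) were lower on all 4 days, against 13.0% of the other chromosomes' records, and 16 were lower on none. Over single days, 289 members were never called lower, 68 were called on 1 day and 16 on 2 days. Cdh3 alone was called lower on 3 days.

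Adhesion genes stood among the members with the lowest values. Cdh3 (ENSMUSG00000061048.8, mm10 chr8:106510890-106557300, plus strand) encodes P-cadherin, an epithelial and placental adhesion protein. At d10 it measured 22.1, 22.8 and 22.8 FPKM in wild type and 11.3, 11.02 and 9.47 in Carma3xpA/+. At d6 it measured 10.002, 14.1 and 13.3 against 8.19, 6.47 and 8.71. On all 4 days the groups did not overlap, and the differences were -0.61 at d0, -0.32 at d3, -0.61 at d6 and -1.03 at d10, each ± 0.16 (SE). Its neighbour Cdh1 (chr8:106603350-106670250), which encodes E-cadherin of embryonic stem cells and epithelium, measured 84.4, 82.1 and 79.5 FPKM at d10 in wild type and 59.2, 58.0 and 63.0 in Carma3xpA/+. Cdh1 was also lower without overlap at d0 (-0.58 ± 0.13), whereas at d3 and d6 the libraries overlapped. Fat1, an atypical cadherin, measured 33.7, 30.2 and 25.5 FPKM at d0 in wild type and 7.57, 19.4 and 12.4 in Carma3xpA/+. The lowest of these 6 was replicate 1, and at d6 and d10 the genotypes overlapped.

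Among the members with the largest negative average difference were also a chromatin gene, a ubiquitin ligase gene and a transcription factor gene. Cul4a, the scaffold of a ubiquitin ligase that acts in replication and DNA repair, measured 14.8, 14.2 and 14.5 FPKM at d3 in wild type and 10.8, 10.95 and 11.2 in Carma3xpA/+. It was lower without overlap at d3, d6 and d10 (-0.37, -0.49 and -0.52, SE 0.19) but not at d0. Kat6a, a histone acetyltransferase, averaged -0.39 ± 0.10, and at d0 its 4.39 FPKM in replicate 1 was the lowest value of the group, beside 11.5 and 8.39. Jund, an AP-1 transcription factor gene, measured 45.9, 53.3 and 59.5 FPKM at d6 in wild type and 29.2, 29.6 and 31.9 in Carma3xpA/+. It was lower without overlap from d3 on, with 0.22 ± 0.14 at d0, where the libraries overlapped.

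Metabolic and membrane genes completed the lower end. Slc7a5, a transporter of large neutral amino acids, measured 63.1, 67.1 and 47.1 FPKM at d0 in wild type and 23.1, 36.2 and 30.4 in Carma3xpA/+, and 22.7, 24.1 and 20.9 against 13.8, 13.5 and 14.9 at d10. At d3 and d6 the genotypes overlapped, so the difference of Slc7a5 lay at both ends of the course. Gpt2, the mitochondrial alanine aminotransferase, showed the same 2 days, with -0.52 at d0 and -0.63 at d10 (SE 0.15). Adam9, a membrane metalloprotease, averaged -0.35 ± 0.12, and its call was lost without wild type d10 replicate 3 and in 3 other alternatives. Tenm3, a teneurin, averaged -0.49 ± 0.13 and overlapped at d0 and d10.

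**Figure D4:**
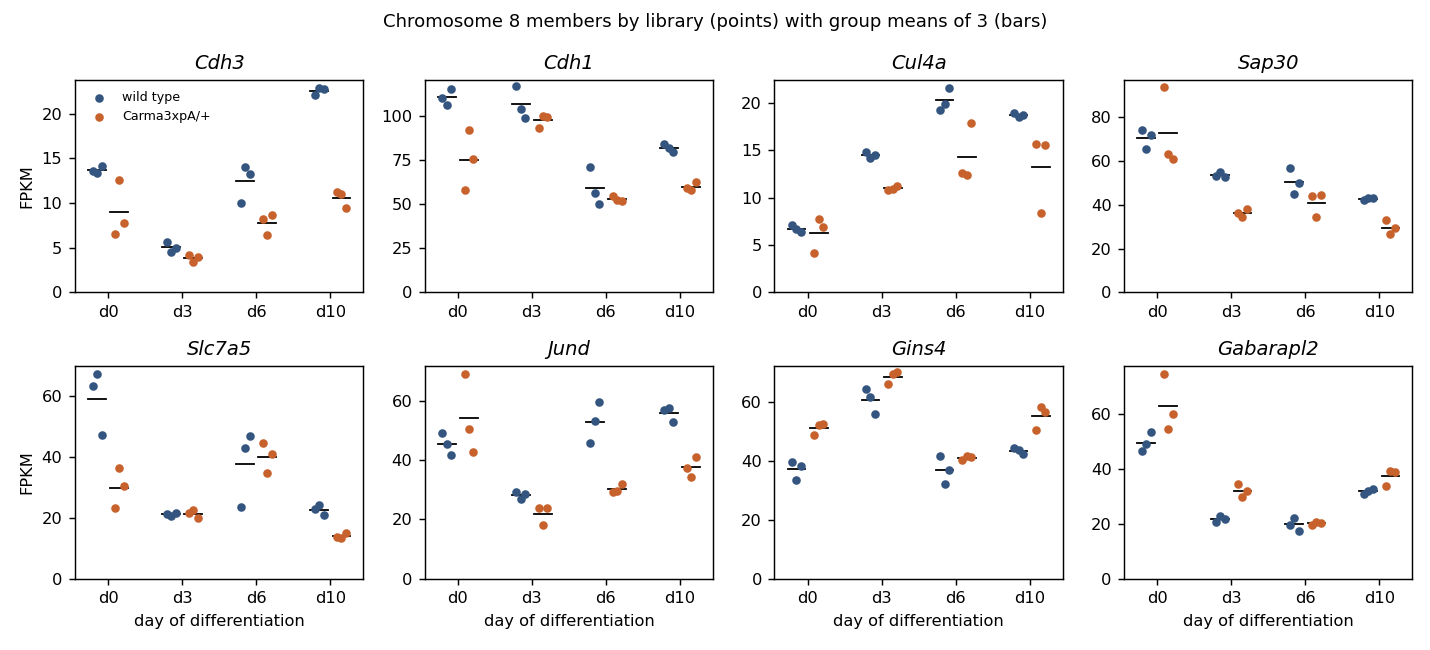
FPKM of Cdh3, Cdh1, Cul4a, Sap30, Slc7a5, Jund, Gins4 and Gabarapl2 by day and genotype; points are libraries and bars are means of 3, with axes from 0. Cdh3 is lower in Carma3xpA/+ on all 4 days, whereas Gins4 and Gabarapl2 are higher at d0, d3 and d10.

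Fewer members were higher, and 5 had the largest positive averages. Gins4, a subunit of the GINS replication complex, measured 39.7, 33.6 and 38.1 FPKM at d0 in wild type and 48.8, 52.2 and 52.5 in Carma3xpA/+, and 44.3, 43.8 and 42.3 against 50.6, 58.2 and 56.5 at d10. Only at d6 did its libraries overlap, and the average difference was 0.28 ± 0.04. Gabarapl2, an autophagy protein of the ATG8 family, measured 20.8, 23.0 and 21.8 FPKM at d3 in wild type and 34.5, 29.9 and 31.9 in Carma3xpA/+. Its genotypes overlapped at d6 (0.03 ± 0.10). Gcsh, the H protein of the glycine cleavage system, averaged 0.28 ± 0.07 and did not overlap at d0, d3 and d6. Apela, a secreted peptide hormone of the early embryo that binds the apelin receptor, measured 33.0, 65.2 and 57.0 FPKM at d3 in wild type and 103, 94.7 and 96.4 in Carma3xpA/+. Its call for the average was lost in 22 alternatives, 19 of which left out 1 library. Palm3, a paralemmin, measured 2.65, 2.77 and 3.73 FPKM at d6 against 8.64, 8.09 and 9.80, and its average call was lost in 7 alternatives.

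The members with the largest differences on single days are given next, and several of them differed on other days too. At d0 Mvd, an enzyme of the mevalonate pathway, measured 12.3, 12.4 and 20.4 FPKM in wild type and 44.8, 26.3 and 27.8 in Carma3xpA/+, and Mt1, a metallothionein, differed by 0.96 ± 0.22. Rex1bd measured 26.5 FPKM in replicate 1 and 12.2 and 12.7 in the other two, and its d0 call was lost without that library, and also without any 1 of the 3 wild type d0 libraries. Acta1, the skeletal alpha-actin, measured 10.4, 11.1 and 14.4 FPKM in wild type and 2.18, 8.22 and 5.80 in Carma3xpA/+ at d0, and that call was lost without replicate 1 of Carma3xpA/+. The 8 pluripotency markers summed to 1516 to 4375 FPKM in Carma3xpA/+ at d0 and 2275 to 2571 in wild type, with 4 of 8 lower, 4 higher and none at 0, and their part in the d0 values was not tested. In a fit of the 6 d0 libraries alone 0 members were called lower and 0 higher by limma, with 40 and 30 at an unadjusted p under 0.05.

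At d3 Sap30, a subunit of the Sin3 histone deacetylase complex, measured 53.3, 55.2 and 52.6 FPKM in wild type against 36.2, 34.6 and 38.0 FPKM in Carma3xpA/+, and at d10 42.1, 43.2 and 43.4 against 32.9, 26.7 and 29.3. Its d3 call was lost without wild type d3 replicate 2 or Carma3xpA/+ d3 replicate 2. The genotypes did not overlap at d3, d6 or d10. Rnf166, a RING ubiquitin ligase, was lower by a difference of -0.56 ± 0.12 at d3. Gab1, a docking protein of receptor tyrosine kinases, was higher at d3 (0.37 ± 0.10), a call lost in 6 alternatives.

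At d6 Tubb3, a neuronal beta-tubulin, measured 7.76, 6.48 and 8.02 FPKM in wild type and 2.35, 4.98 and 2.42 in Carma3xpA/+. The 5 neuroectoderm markers, Tubb3 among them, summed to 4.62 to 8.06 FPKM in Carma3xpA/+ and 9.91 to 11.7 in wild type at d6, with 4 of 5 lower and 1 of them at 0 in a library. Tubb3 made up most of the wild type sums, so the difference of the sums is not separate from its own. Tppp3, of a family that promotes tubulin assembly, was higher at d6 (4.38 to 5.31 FPKM against 1.45 to 2.19), as was Atxn1l, an ataxin 1 relative (9.14 to 9.85 against 3.74 to 4.89). The 6 endoderm markers were all higher at d6, at 463 to 611 FPKM against 146 to 183 with none at 0. All 8 cardiac muscle markers were lower (sums of 582 to 694 against 659 to 852, 1 at 0 in a library). All 6 primitive blood markers were lower too (1575 to 2518 against 2336 to 4712, none at 0), and both pairs of sums overlapped. Of the fibroblast and mesenchyme markers 7 of 8 were lower, of the endothelial 4 of 6, and 6 of 8 pluripotency markers were higher. The part of these cell types in the d6 values was not tested. The call of Atxn1l was lost in 4 alternatives, and that of Tcim, which was lower (-0.79 ± 0.21), in 5.

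At d10 Acta1, which is also expressed in developing heart, measured 24.3, 23.3 and 16.3 FPKM in wild type and 58.2, 48.4 and 68.2 in Carma3xpA/+. All Carma3xpA/+ libraries lay above all wild type libraries, and 8 of 8 cardiac muscle markers were also higher, with sums of 1080 to 1614 FPKM against 422 to 606 and none at 0. Gas6, a ligand of the receptor kinases Tyro3, Axl and Mertk, measured 67.6, 71.4 and 74.9 FPKM in wild type and 32.8, 42.9 and 38.9 in Carma3xpA/+. The chemokine gene Ccl17 measured 76.1, 74.0 and 92.1 against 32.0, 48.4 and 41.3. With them, 8 of 8 fibroblast and mesenchyme markers were lower at d10, at 293 to 403 FPKM against 658 to 846, none at 0. Plvap, a protein of endothelial fenestrae, measured 4.63, 3.69 and 2.83 FPKM in wild type and 9.20, 6.49 and 7.48 in Carma3xpA/+, and Klf2, an endothelial and pluripotency factor, 9.42, 10.7 and 7.80 against 13.4, 15.2 and 18.3. Of 6 endothelial markers 5 were higher, with sums of 24.6 to 38.7 against 19.01 to 21.8 and none at 0. Plvap is itself 1 of these 5 and part of the sums. Of 8 pluripotency markers 6 were higher at d10, with sums of 166 to 250.3 FPKM against 118 to 190 and none at 0, and Pou5f1 lay at 29.1 to 48.6 against 11.9 to 25.3. All 5 neuroectoderm markers, Tubb3 among them, were lower at d10 (sums of 24.3 to 50.6 FPKM against 52.9 to 71.2, none at 0). Of 6 endoderm markers 4 were higher, and of 6 primitive blood markers 4 were lower. The part of cell composition in these d10 values was not tested. The call of Klf2 was lost in 6 alternatives and that of Plvap without wild type d10 replicate 3.

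The genotype differences are also given by role, as counts of calls for the average over 4 days, and nothing is read from their direction, which the choice of the chromosome favours. Of 374 members 175 were in 1 of 10 role lists. Beside each list stand 22.7% of all members called lower and 5.08% higher, 13.5% and 13.1% of all tested records, and 10.1% and 11.7% of the comparable records. The median was -0.07 over all members and -0.02 over the comparable records. Of 9 genes in the adhesion and receptor list 4 were called lower (Cdh1, Cdh3, Fat1, Lamp1) and 0 higher, with a median of -0.21. Lamp1, though in this list, encodes a lysosomal membrane glycoprotein. Of 18 chromatin and telomere genes 5 were lower (Acd, Atmin, Brd7, Kat6a, Sap30) and 1 higher (Cfdp1), median -0.14. Of 10 cytoskeleton and muscle genes 3 were lower (Dync1li2, Pcm1, Tubb3), median -0.11. Of 16 stress and apoptosis genes 3 were lower (Ier2, Irf2bp2, Jund), median -0.10. Of 9 growth factor signalling genes 3 were lower (Fgfr1, Prkaca, Siah1a), median -0.10, and of 7 early embryo regulators 1 was lower (Sall1), median -0.10. The remaining lists were larger.

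Of 28 membrane traffic genes 7 were lower, Vps35 and Ap1g1 among them, and 1 higher (Gabarapl2), median -0.08. Of 19 replication and division genes 4 were lower (Cenpn, Cul4a, Hmgb2, Mcm5) and 1 higher (Gins4), median -0.06. Mcm5, a subunit of the replicative helicase, measured 96.7, 94.3 and 94.1 FPKM at d3 in wild type and 81.9, 81.1 and 84.9 in Carma3xpA/+. Of 32 RNA and translation genes 5 were lower (Abce1, Cnot1, Ddx19a, Tnpo2, Upf1) and 3 higher (Ddx49, Kars, Polr2c), median -0.04. Of 27 metabolic genes 6 were lower and 2 higher (Gcsh, Got2), median -0.02. Names that only spell out these counts were picked with the values in view.

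The wild type time course was not used to choose the chromosome, and here tests apply. From d0 to d3 limma called 92 members lower and 115 higher, where 27.7% of all tested records were called in each direction and 25.6% and 32.5% of the comparable records on other chromosomes. From d3 to d6, 108 fell and 114 rose (24.7% and 35.4% of all, 30.7% and 29.3% of the comparable records), and from d6 to d10 81 fell and 95 rose (23.9% and 24.6%, 23% and 24.6%). Relative to other chromosomes the members' median changed by -0.02, 0.00 and 0.04 in these steps. The shares called were thus close to those of the other chromosomes in each step. The spread is again estimated over all groups of both genotypes, so replicate 1 of Carma3xpA/+ at d0 bears on these counts too. Without it limma called 237, 243 and 214 members in the 3 steps, against 207, 222 and 176 with it.

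Beside the counts by role in this course stand the shares over all tested records given above, and the difference of a list from them was not tested. The median changes of the comparable records were 0.07, -0.01 and -0.00 in the 3 steps. Of 19 replication genes 9 rose and 3 fell from d0 to d3, 12 fell and 2 rose from d3 to d6, and 6 fell and 2 rose from d6 to d10, with medians of 0.38, -0.35 and -0.11. Hmgb2, a chromatin protein of dividing cells, went from 221 ± 2.01 to 268 ± 4.13 FPKM (SD, n = 3), then 178 ± 16.9 and 146 ± 7.33, with adjusted p from limma of 0.00567, 2.18e-06 and 0.00793 for the steps. Mcm5 fell 1.71-fold from d3 to d6 (adjusted p from limma = 6.7e-08). Of 32 RNA and translation genes 15 rose and 4 fell, then 18 fell and 3 rose, then 7 fell and 3 rose, with medians of 0.26, -0.46 and -0.04. The lysyl-tRNA synthetase gene Kars followed this order, 85.6 ± 7.15, 102 ± 6.28, 62.9 ± 3.65 and 59.2 ± 2.75 FPKM (adjusted p from limma = 0.0103, 2.99e-07 and 0.405).

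Of 28 membrane traffic genes 7 rose and 5 fell from d0 to d3, 12 rose and 2 fell from d3 to d6, and 12 rose and 3 fell from d6 to d10, with medians of 0.06, 0.25 and 0.27. Of 10 cytoskeleton genes 7 rose and 1 fell from d3 to d6, and 5 rose and 1 fell from d6 to d10, with medians of 0.56 and 0.35. Cotl1, an F-actin binding protein, rose from 12.03 ± 0.653 at d3 to 54.9 ± 2.91 and 94.3 ± 3.91 FPKM (adjusted p from limma = 2.06e-09 and 0.00106), after a 2.89-fold fall before d3. Of 9 genes in the adhesion and receptor list, Lamp1 included, 6 rose and 1 fell from d3 to d6. From d6 to d10 4 rose and 3 fell, and the medians were 0.94 and 0.26. Lamp1, a lysosomal membrane glycoprotein, rose to 287 ± 7.26 FPKM at d10 from 168 ± 6.53 (adjusted p from limma = 1.09e-07). Cdh1 fell 1.80-fold from d3 to d6 (adjusted p from limma = 7.7e-06). The other lists were more mixed. From d0 to d3, of 27 metabolic genes 12 rose and 6 fell, of 16 stress genes 4 rose and 6 fell, and of 9 signalling genes 1 rose and 5 fell. Of 18 chromatin genes 6 fell and 0 rose from d6 to d10 in limma's test, and of 7 early embryo genes 3 fell and 0 rose.

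Single genes changed far more than the chromosome's median. Klf2 fell 5.72-fold from d0 to d3, from 72.1 ± 5.92 to 12.6 ± 0.407 FPKM (adjusted p from limma = 5.12e-09). Adgre5, the adhesion receptor CD97, fell 7.53-fold (1.52e-09), Acta1 7.85-fold (9.46e-07) and Junb, an AP-1 gene, 4.93-fold (2.67e-09, adjusted p from limma in each case). In the same step Cdh11, a mesenchymal cadherin, rose from 0.744 ± 0.244 to 9.34 ± 2.19 FPKM (4.34e-06), and the potassium channel gene Kcnk1 3.63-fold (1.06e-08). Txnl4b and Tmem208 rose 3.23-fold and 2.67-fold, with adjusted p from limma of 9.53e-09 and 5.23e-08.

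Genes of vessel and heart were among those that rose from d3 to d6. Cdh5, the endothelial VE-cadherin, rose from 0.103 ± 0.105 to 67.2 ± 8.79 FPKM and fell back to 6.97 ± 1.30 at d10 (adjusted p from limma = 5.05e-16 and 5.69e-12). Plvap went from 1.71 ± 0.212 to 42.5 ± 8.37 and 3.72 ± 0.902 (3.63e-12 and 1.77e-10). Hand2, a transcription factor of the developing heart, rose to 32.6 ± 3.19 FPKM at d6 (adjusted p from limma = 1.91e-14) and was at 40.8 ± 1.92 at d10, where the step did not pass (0.116). Triml2 fell 11.9-fold to 0.557 ± 0.152 FPKM from d3 to d6 (7.31e-12), Kcnk1 4.43-fold (7.39e-10) and Syce2, of the meiotic synaptonemal complex, 2.78-fold (1.96e-07). Nqo1, a quinone reductase under oxidative stress control, went from 10.1 ± 0.576 to 2.05 ± 0.331 and back to 11.2 ± 0.868 FPKM (2.44e-09 and 1.6e-09).

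From d6 to d10 Sall1, a zinc finger factor of the early embryo, fell 6.01-fold to 4.76 ± 0.764 FPKM (adjusted p from limma = 2.2e-10). Ccl17, under 1 FPKM in every wild type library up to d6, reached 80.7 ± 9.93 at d10 (4.48e-15). Gas6 rose 5.73-fold to 71.3 ± 3.64 (2.57e-11) and Tubb3 4.65-fold to 34.5 ± 5.06 (9.21e-08). The vessel members that rose at d6 thus fell while a chemokine, a secreted ligand and a neuronal tubulin rose.

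**Figure D5:**
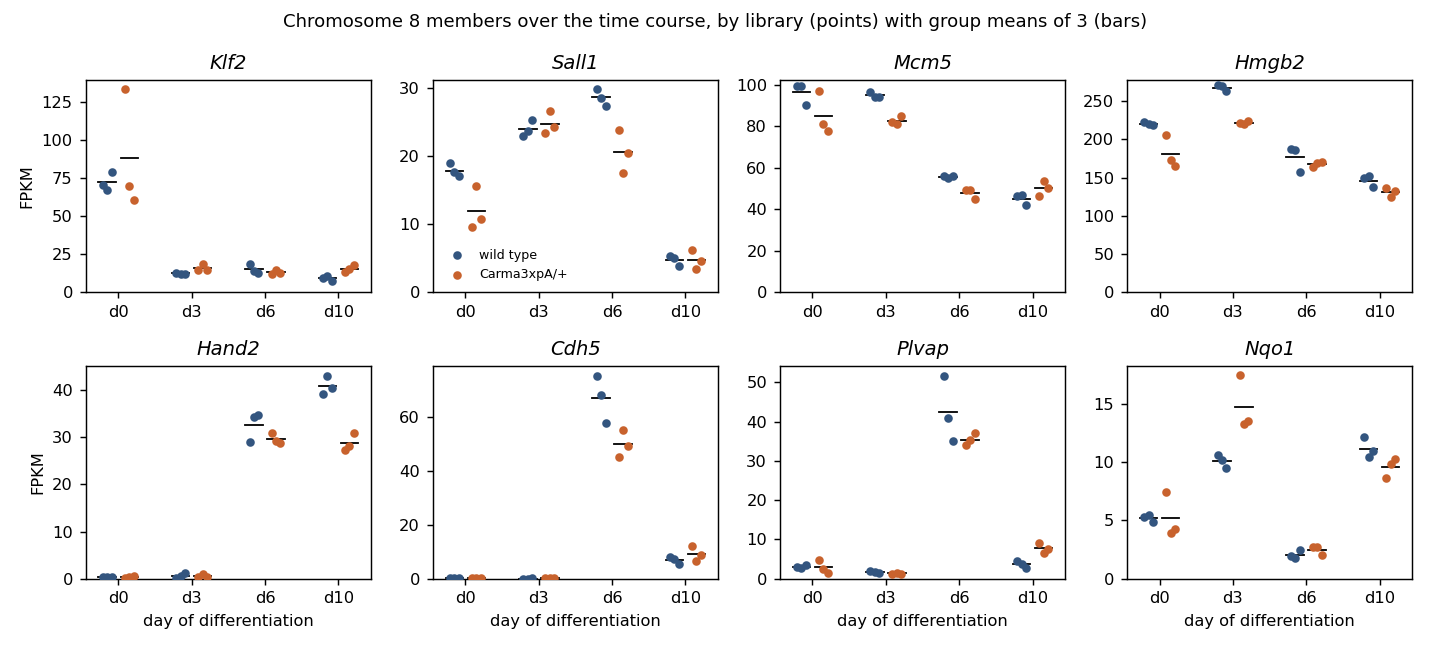
FPKM of Klf2, Sall1, Mcm5, Hmgb2, Hand2, Cdh5, Plvap and Nqo1 by day and genotype; points are libraries and bars are means of 3, with axes from 0. Cdh5 and Plvap peak at d6, Klf2 is highest at d0, and replicate 1 of Carma3xpA/+ at d0 gives the highest Klf2 value.

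The highest members did not follow 1 course. Mean FPKM over all libraries had a median of 13.3 and a lowest value of 5.03, and among the highest were the chaperone calreticulin Calr (269), the metallothionein Mt2 (241), Cfdp1 (205) and Tpm4 (203). Calr was at 243 ± 38.5 FPKM at d0 and 365 ± 2.45 at d10 in wild type, and its last step was called (adjusted p from limma = 0.0168). Tpm4, a tropomyosin, rose from 102 ± 4.05 at d0 to 161 ± 8.29 at d3 and 279 ± 30.9 at d6 (adjusted p from limma = 0.0146 and 0.00379). Prdx2, a peroxiredoxin, measured 100.2, 100.5 and 101 FPKM at d3 in wild type and 70.6, 71.6 and 74.9 in Carma3xpA/+, without overlap.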

How the data were processed

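RNA from 24 libraries was described as FPKM, which the authors deposited per gene and per transcript, per the file headers. The submitters' processing notes name FastQC, cutadapt, HISAT2, StringTie and build mm10, without versions, settings or annotation. All 14737 gene records were protein-coding, so Carma was not analysed here. No whole-read steps were found (23 of 809 low records shared the most frequent ratio), and depth is unknown.

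Groups came from the titles. Values were used as log2(FPKM + 1), for 13373 records with at least 1 FPKM in at least 3 libraries. limma 3.58.1 in R 4.3.3 fitted 1 mean per group (16 residual degrees of freedom, variance trend), with Benjamini-Hochberg adjustment over all tested records, two-sided. The model was tested on simulated data. The members, role lists and named genes were chosen with earlier results of these data known. Named were the 10 lowest and 5 highest called averages, up to 3 each way per day and 4 per wild type step among called members without overlap, the 3 most expressed per list and those at the limit. A few genes so named are left out of the text. Alternatives changed the pseudocount, filter, scaling, weights, block, libraries, threshold and table.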

Additional observations from a re-analysis of the deposited data

Results flagged for a closer look

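Of 66 named members, 10 had every Carma3xpA/+ library above every wild type library on 1 day and below on another. The difference between days was not tested, and 49 of the 374 members (13.1%) have such a pair of days, against 10.6% of all tested records and 10.8% of comparable records on other chromosomes. Values are log2 differences, Carma3xpA/+ minus wild type. Acta1 was at -1.14 at d0, 0.74 at d3 and 1.42 at d10. Tppp3 was at 0.69 at d0, 1.06 at d6 and -0.72 at d10. Mvd was at 1.08 at d0, -0.29 at d3 and -0.27 at d10. Gab1 was at -0.74 at d0, 0.37 at d3 and 0.16 at d6. Prdx2 was at 0.20 at d0, -0.47 at d3 and -0.52 at d6. Tcim was at -0.79 at d6 and 0.40 at d10, and Nqo1 at 0.50 at d3 and -0.20 at d10. Rex1bd was at 0.70 at d0 and -0.34 at d6. Triml2 was at -0.45 at d0 and 0.32 at d6, and Spcs3 at -0.32 at d0 and 0.20 at d6. In 8 of the 10 the d0 libraries are on one side of the pair, and replicate 1 of that group stood apart.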

How the results depend on the processing

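The shift of the members relative to other chromosomes kept its negative sign on every day and under every alternative run. At d3 (-0.097) it was -0.103 with a pseudocount of 0.1, -0.084 after quantile normalization, -0.103 among members at 20 FPKM or more and -0.082 in the transcript table, and -0.101 to -0.087 with 1 library left out. At d6 (-0.061) these settings gave -0.067, -0.066, -0.055 and -0.068, sample quality weights gave -0.069, and leaving out 1 library -0.069 to -0.053. At d10 (-0.051) weights gave -0.073, members at 20 FPKM or more -0.081, and leaving out 1 library -0.075 to -0.036. At d0 leaving out 1 library gave -0.034 to -0.0097. The average (-0.057) was -0.098 at 20 FPKM or more, and -0.066 to -0.049 with 1 library left out.

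Counts of members called lower moved more. Weights, whose estimate stopped before converging, gave 106, 107, 41 and 136 at d0, d3, d6 and d10 and 157 for the average. Rescaling to equal totals outside chromosomes 8 and 11 gave 10, 9 and 13 at d3, d6 and d10, and quantile normalization 30 at d6. A fit of only the groups compared gave 0 at d0, 64 at d3 and 11 at d10. Leaving out 1 library gave 21 to 88 at d0, 7 to 47 at d3, 10 to 30 at d6, 7 to 42 at d10 and 70 to 111 for the average. The cause was not tested. Of 62 results on named genes none reversed, and 75 of 1226 alternatives ended a call.

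The replicate numbers do not pair the samples. Of 12 pairs of same-numbered libraries 1 had correlated deviations over 0.1, with a range of -0.169 to 0.198, and in 3 the own number correlated best. With the number as a block 45 members were called lower at d0, 18 at d3, 15 at d6, 20 at d10 and 78 for the average, and the wild type steps had 206, 218 and 175 calls, against 207, 222 and 176. Depth is unknown, so precision rests on 3 libraries per group, and what a low value's counting error allows cannot be given.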

Other observations

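Exosc6, a subunit of the RNA exosome, was the member with the largest positive difference at d3 (1.44 ± 0.90), with libraries that overlapped. It measured 0.0774, 31.4 and 27.2 FPKM in the 3 wild type d3 libraries and 24.7, 24.4 and 28.8 in Carma3xpA/+, and 17.9, 2.02 and 1.35 in wild type at d10. Exosc6 was singled out after its values were seen.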
